A study of Homo sapiens with 6 samples.

Results

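RNA was compared between 2 exposures of HepG2 cells to GenX, 100 µM and 10 µM, over all 57500 genes listed in the count tables. The 4 libraries used here, of 6 in all, were chosen by their labelled dose, with 2 libraries at 10 µM and 2 at 100 µM. HepG2 is a line from a human liver carcinoma, labelled here as wild-type epithelial cells of the liver, and GenX is the trade name of a perfluoroalkyl ether acid used in making fluoropolymers. All cells were exposed for 48 h in medium with fetal bovine serum and antibiotics. The remaining 2 libraries were controls that received only the solvent DMSO, and they entered the model fit and are given as background. In all groups mitochondria were isolated with a kit, total RNA was taken up in TRIzol, and stranded libraries were made after depletion of ribosomal RNA. The labels placed all libraries in 1 batch and did not say whether replicates were separate cultures, so the spread that p-values rest on here is that between samples and may be technical.

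Human mitochondrial DNA (mtDNA) is transcribed from both strands into long RNAs, from which the transfer RNAs (tRNAs) are cut out, which frees the ribosomal and messenger RNAs between them. The messenger RNAs encode subunits of the respiratory chain and of ATP synthase, and the mature RNAs are known to differ in stability. A kit preparation of mitochondria can also hold RNA from the cytosol, the endoplasmic reticulum and the nucleus, so its libraries contain nuclear transcripts of all classes.

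The 10 µM libraries held 43556 and 29350 counts and the 100 µM libraries 2141282 and 1338397, a mean difference of 47.7-fold. The level of 3 counts, taken as the limit for a gene at 0, was 68.9 and 102 CPM (counts scaled to a common library total) at 10 µM and 1.40 and 2.24 CPM at 100 µM. This limit and all intervals given here cover counting error only. A gene below the limit at 10 µM was not detectable at that depth, and 39213 genes had no count in any of the 4 libraries. For this reason the numbers of genes detected, and the numbers of all genes that passed the test, are given both at full depth and after thinning each library to 29350 counts, the smallest total.

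The sequences of 4 mitochondrial tRNA genes and of a microRNA are shown first, because the tRNA genes differed most among themselves and the microRNA gene was the only short RNA gene that entered the test. The tRNA sequences are those of GENCODE release 29 transcripts (build GRCh38), 5′ to 3′, with the anticodon in capitals. MT-TV, the valine tRNA (MT:1602-1670, plus strand), had the highest level per kilobase of them at 10 µM, and MT-TL2, the leucine tRNA for CUN codons (MT:12266-12336, plus strand), the widest difference between the doses. MT-TL1, the leucine tRNA for UUR codons (MT:3230-3304, plus strand), and MT-TC, the cysteine tRNA (MT:5761-5826, minus strand), had the highest levels per kilobase of all tRNA genes at 100 µM.
MT-TV: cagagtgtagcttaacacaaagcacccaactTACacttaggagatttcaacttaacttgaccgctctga
MT-TL2: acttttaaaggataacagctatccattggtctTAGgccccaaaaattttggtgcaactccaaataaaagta
MT-TL1: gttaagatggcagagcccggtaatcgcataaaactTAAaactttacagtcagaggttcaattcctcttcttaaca
MT-TC: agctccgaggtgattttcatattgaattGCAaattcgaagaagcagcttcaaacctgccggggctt
The mature microRNA of MIR657, from RefSeq (GRCh38.p14), lies at chr17:81125291-81125313 on the minus strand and is shown with its seed in capitals.
hsa-miR-657: gGCAGGUUcucacccucucuagg

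The largest difference between the doses lay in the classes of RNA. Nuclear protein-coding genes took 44.5% and 31.9% of all counts at 10 µM and 89.5% and 90.5% at 100 µM. The group means were 38.2% ± 8.93 and 90.0% ± 0.679 (SD, n = 2 each), and the groups did not overlap. At 10 µM the mitochondrial tRNA genes took 5.40% and 7.86%, and at 100 µM 0.0956% and 0.105%, a 66.1-fold difference in means, against 13.7-fold for the mtDNA protein genes, whose means were 45.8% ± 10.6 and 3.35% ± 0.194. By exact permutation over libraries (two-sided) each of these differences had p = 0.333, and no design of 2 against 2 can give a smaller value. The shares in the controls were 79.7% and 80.0% for protein-coding genes, 0.391% and 1.25% for mitochondrial tRNA genes and 3.96% and 9.19% for mtDNA protein genes. In bulk libraries such as these, less RNA of a kind per cell and fewer cells or organelles that carry it cannot be told apart.

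**Figure D1:**
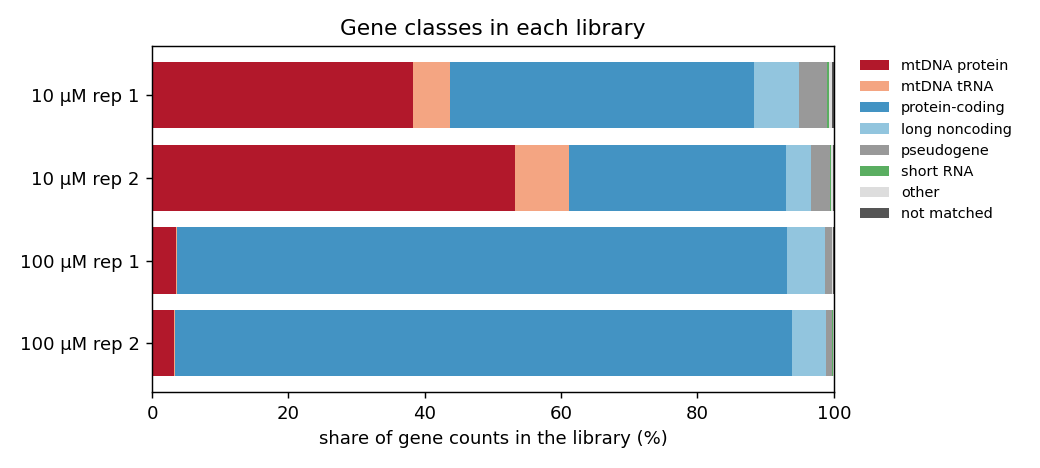
Stacked bars show the share of all gene counts (x axis, %) that each class of gene took in each of the 4 libraries. Red and salmon segments (mtDNA) fill 43.7% and 61.1% of the 10 µM bars and 3.58% and 3.32% of the 100 µM bars, where protein-coding genes (blue) reach 89.5% and 90.5%.

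With mtDNA left out, the mix of nuclear classes also differed. Of the nuclear counts, protein-coding genes took 79.2% and 82.1% at 10 µM and 92.9% and 93.6% at 100 µM. Long noncoding RNA genes took 11.9% and 9.46% at 10 µM and 5.77% and 5.17% at 100 µM, which is 1.95-fold less in the means (10.7% ± 1.70 and 5.47% ± 0.426, SD, n = 2). Pseudogenes took 7.10% and 6.80% at 10 µM against 1.07% and 1.03% at 100 µM, 6.62-fold less. Short RNA genes took 0.714% and 0.728% against 0.0899% and 0.0762%, 8.68-fold less. In all 4 classes the groups did not overlap (p = 0.333, exact two-sided permutation test). The controls held 15.8% and 8.97% long noncoding, 0.614% and 1.34% pseudogene and 0.0786% and 0.116% short RNA counts, so for pseudogenes and short RNA the 10 µM libraries lay above all 4 others.

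Whether the long noncoding class differed depended on what it was measured against. As a share of all counts it was 6.67% and 3.68% at 10 µM and 5.57% and 5.00% at 100 µM, and these values overlapped (difference of 0.107 percentage points, p = 1.00, exact permutation test). Among the short RNA genes, the annotated microRNA genes took 0.175% ± 0.0868 of nuclear counts at 10 µM and 0.00901% ± 0.00137 at 100 µM, a ratio of 19.5. The ratios were 12 for small nuclear RNA genes, which serve in splicing, 4.28 for small nucleolar RNA genes, which guide the modification of other RNAs, and 7.05 for the class that holds Y RNA and signal recognition particle RNA copies. The groups did not overlap in any of these 4 sub-classes, although only 7 to 77 counts per sub-class and library lay behind the shares at 10 µM. Of the 58 microRNA gene counts in 10 µM replicate 1, MIR657 held 14 and MIR8078 13. Reads of MIR657 cannot be told apart from those of AATK, the gene around it, so the microRNA ratio is uncertain.

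At full depth more genes of every nuclear class were detected at 100 µM, and thinning turned this order for most noncoding classes. Genes with at least 1 count numbered 4665 and 3100 at 10 µM and 13708 and 11673 at 100 µM, 3.27-fold more in the means. At 29350 counts the expected numbers were 4066 and 3100 against 5859 and 5470, 1.58-fold more, and 3927 and 3924 in the controls. For protein-coding genes alone the thinned numbers were 3071 and 2493 against 5303 and 4983, a ratio of 1.85. Pseudogenes went the other way once thinned, with 335 and 247 at 10 µM against 177 and 156 at 100 µM (ratio 0.572, and 3.30 at full depth). Short RNA genes numbered 52.4 and 35 against 20.6 and 16.7 (ratio 0.427, and 2.62 at full depth). For long noncoding genes the thinned numbers of 525 and 261 overlapped with 305 and 270. All 22 mitochondrial tRNA genes had counts in every library at full depth, but only 5.07 and 6.45 of them were expected at 100 µM after thinning.

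Most nuclear genes with counts in a 10 µM library were not found again in its replicate, while those at 100 µM mostly were. At full depth, 933 nuclear genes had at least 10 counts in a 10 µM library, and 704 of them (75.5%) had 0 in the other. At 100 µM, where the libraries were deeper, these numbers were 10478 and 2253 (21.5%). After thinning, in 5 random draws, 448 to 473 of 618 to 642 such genes (72.5% to 73.7%) were at 0 in the other 10 µM library, against 5 to 11 of 791 to 810 (0.627% to 1.36%) at 100 µM and 35.9% to 38.9% in the controls. Of all nuclear genes detected in a pair, 13.8% to 14.1% were found in both 10 µM libraries and 46.4% to 47.2% in both 100 µM libraries. At equal totals the 100 µM libraries held more nuclear counts, since mtDNA took less of them.

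**Figure D2:**
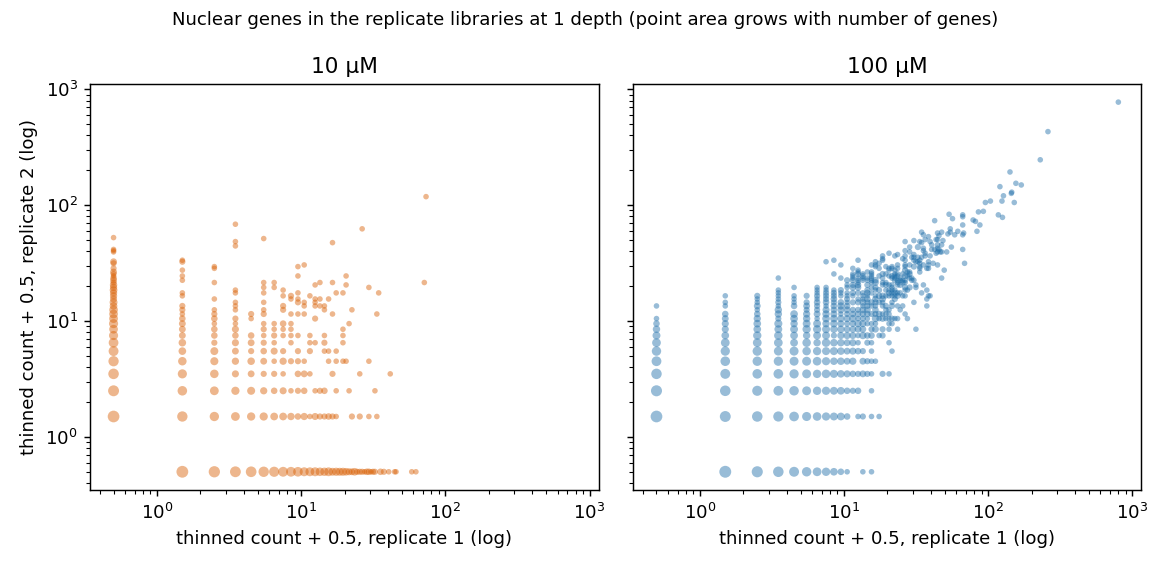
Each point is a pair of counts, in replicate 1 (x axis, log scale) and replicate 2 (y axis, log scale), of nuclear genes after thinning to 29350 counts, with 0.5 added so that genes at 0 can be drawn. At 10 µM (left) many genes lie along the axes, high in only 1 library, while at 100 µM (right) genes above 10 counts lie near the diagonal.

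MYO15B, a myosin-related gene, had 109 and 21 counts at 10 µM and 14 and 83 at 100 µM. BCL11B, a zinc finger transcription factor, had 87 and 0 counts at 10 µM, and GDF7, a growth factor of the bone morphogenetic protein family, had 72 and 0. CACNA1H, a T-type calcium channel, had 72 and 0, and BRF1, a subunit of the RNA polymerase III initiation factor, had 5 and 51. WDR90, a WD-repeat protein, had 36 and 62. Each of these was among the 5 nuclear genes with the highest level in a 10 µM library, and none passed the test between doses. GDF7 and CACNA1H did not enter it, since they reached the 66.3 CPM that the filter on low counts asked for in 1 library only.

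The nuclear gene with the most counts also differed. At 10 µM it was MTATP6P1, a pseudogene on chromosome 1 that is a near-identical copy of the mtDNA gene MT-ATP6, with 109 and 118 counts (0.445% and 1.03% of nuclear counts), tied with MYO15B in replicate 1. At 100 µM it was MALAT1, a long RNA retained in the nucleus, with 61687 and 34744 counts (2.99% and 2.69%). MTATP6P1 had 375 and 230 counts at 100 µM and passed as lower (log2 fold change -4.57 ± 1.07, SE; adjusted p = 0.0478, edgeR quasi-likelihood). Reads of MT-ATP6 can be split between it and this copy, so its counts are uncertain as a nuclear measure. Pseudogenes named after mtDNA genes, 393 in all, held 11.3% and 21.1% of the pseudogene counts at 10 µM and 2.91% and 2.80% at 100 µM. The other pseudogenes alone still took 6.30% and 5.37% of nuclear counts at 10 µM against 1.04% and 1.00% at 100 µM.

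Counts of nuclear protein-coding genes leaned towards shorter genes at both doses, and more so at 100 µM. Length here is the counted exonic length in the tables. Genes under 1 kb make up 0.884% of that length and took 1.03% ± 0.0700 of protein-coding counts at 10 µM and 2.96% ± 0.0204 at 100 µM (SD, n = 2), which is 1.16 and 3.35 times their share of length. The corresponding multiples were 1.25 and 1.91 for genes of 1 to 2 kb, 1.35 and 1.55 for 2 to 4 kb, and 1.01 and 0.985 for 4 to 8 kb, where the groups overlapped. Genes of 8 kb and over took 30.2% ± 0.151 at 10 µM and 23.2% ± 0.262 at 100 µM, or 0.802 and 0.618 times their share of length, a difference of -6.93 percentage points (p = 0.333, exact permutation test). The median counted length behind a count was 5916 and 5768 bp at 10 µM and 5177 and 5131 bp at 100 µM, and the controls, with 5852 and 5056 bp, spanned most of that range.

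The base composition of the counted genes differed more than their length. Genes whose longest transcript has a GC content of 60% or more make up 11.4% of counted length. They took 33.2% ± 4.50 of protein-coding counts at 10 µM and 8.82% ± 0.266 at 100 µM, and 7.60% and 15.3% in the controls. Genes of 40 to 45% GC took 13.4% ± 4.12 at 10 µM and 23.7% ± 0.583 at 100 µM, and genes under 40% GC took 8.38% ± 0.599 and 13.1% ± 0.333. Weighted by counts, the mean GC content was 53.2% and 54.8% at 10 µM and 48.7% and 48.9% at 100 µM, beside 48.3% for all protein-coding genes weighted by length. The groups did not overlap in any of the 6 GC classes (p = 0.333, exact permutation test). This division by GC was chosen after the data had been seen.

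**Figure D3:**
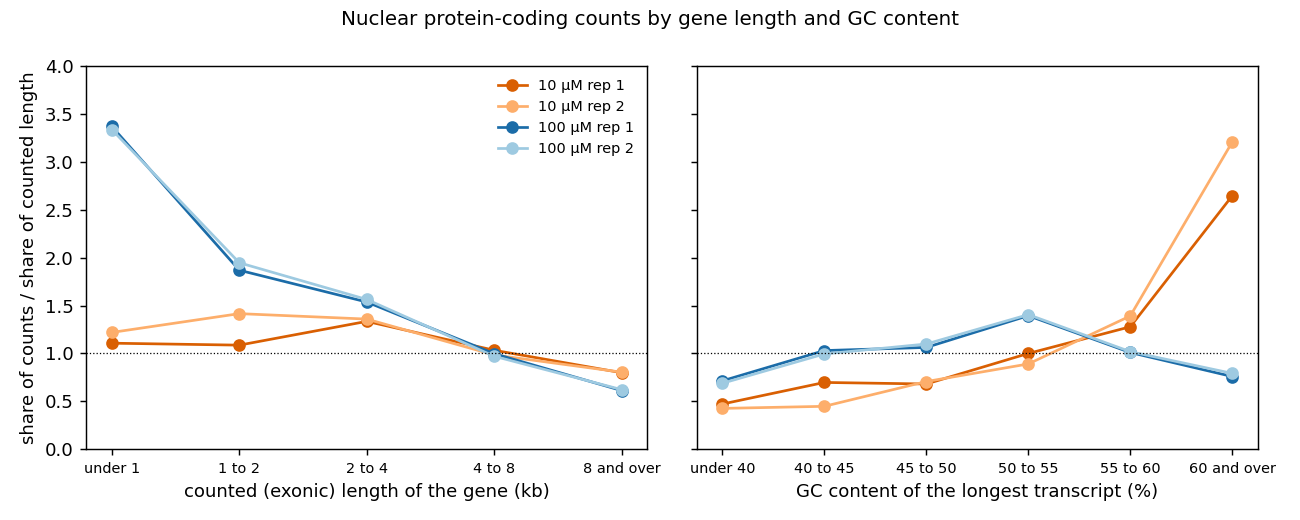
Lines give, for each of the 4 libraries, the share of nuclear protein-coding counts divided by the share of counted length (y axis) in classes of counted length (left, kb) and of GC content (right, %). At 1 (dotted) counts follow length. The 100 µM libraries reach 3.35 on average in genes under 1 kb, and the 10 µM libraries 2.92 in genes of 60% GC and over.

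Across genes, the doses were compared with edgeR's quasi-likelihood test on counts, fitted to all 6 libraries with adjustment over all 3180 genes that passed the filter on low counts. At an adjusted p under 0.05, 91 genes passed (2.86% of those tested), 24 higher at 100 µM (0.755%) and 67 lower (2.11%). The lower genes included all 13 mtDNA protein genes, 20 of the 22 mitochondrial tRNA genes, 26 of 3050 protein-coding nuclear genes, 3 of 60 long noncoding genes, 4 of 32 pseudogenes and 1 short RNA gene, the only gene of its class that was tested. The higher genes were 22 protein-coding and 2 long noncoding genes. Fold changes are log2 values of 100 over 10 µM, relative to the composition-based TMM scale, on which the median of all tested genes stood at 3.52, or 1.21 with genes at 0 in a group set to the bound that 3 counts give. All 10 µM counts were 0 for 1286 of these genes and all 100 µM counts for 35, and the fitted value of such a gene depends on the prior count.

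The filter asked for 66.3 CPM in at least 2 libraries, which a few counts reach at 10 µM. All 26 lower protein-coding genes, 7 of the 8 other lower nuclear genes (MTATP6P1 being the exception) and 9 of the 33 lower mtDNA genes met it only through the 10 µM libraries. These genes could be tested only because they were high at 10 µM, so their number and direction are a description and support nothing further. Of the 24 higher genes, 0 met the filter through the 100 µM libraries alone. Among all 3180 tested genes, 1907 met it only through the 100 µM libraries and 539 only through the 10 µM libraries.

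The split of 24 higher and 67 lower moved with the scaling. It was 6 and 73 with DESeq2 size factors (median of all genes 2.54), 68 and 91 with library sizes alone (3.89) and 32 and 73 with TMM over nuclear genes (3.56). With the counts on mtDNA protein genes as library size the median stood at 7.40 and the split was 2388 and 59 (75.1% and 1.86% of tested genes, 76.9% in all). At 29350 counts per library, in the first of 5 random draws, 655 genes could be tested and 64 passed (9.77%), 6 of them higher (0.916%) and 58 lower (8.85%). Over the 5 draws 6 to 10 were higher and 58 to 62 lower, among them 5 to 9 and 20 to 24 nuclear protein-coding genes. With a dose left at 1 library, which is then taken to vary like the other groups, the split was 6 and 22 without 10 µM replicate 1, 36 and 182 without replicate 2, and 8 and 8 or 9 and 8 without 100 µM replicate 1 or 2. Without control 1 or control 2, which enter through the scaling, the shared spread and the filter, it was 822 and 219 or 927 and 345.

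**Figure D4:**
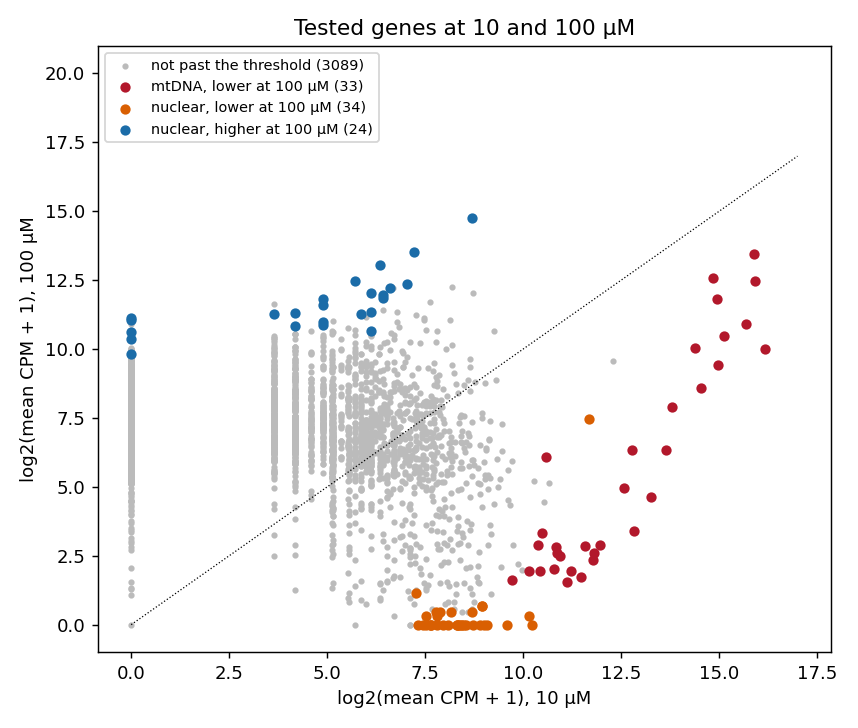
Each point is 1 of the 3180 tested genes, by its mean level over 2 libraries at 10 µM (x axis) and at 100 µM (y axis), as log2 of CPM plus 1, with equal levels on the dotted line. The 33 mtDNA genes that passed (red) lie at the right below the line, the 34 nuclear lower genes (orange) lie near 0 at 100 µM except MTATP6P1, and the 24 higher genes (blue) lie at the top left.

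Within mtDNA, every gene had fewer CPM at 100 µM. The tRNA genes fell further in the median than the protein genes (log2 values of -9.03 and -5.11), though not every tRNA gene did. MT-ND5, a complex I subunit, had 2794 and 2458 counts at 10 µM and 2529 and 1146 at 100 µM, although the latter libraries were far deeper. Its mean level was 73948 ± 13860 and 1019 ± 230 CPM (SD, n = 2), and it fell by 6.53 on the log2 scale (SE 0.63, adjusted p = 0.00126, edgeR quasi-likelihood). MT-CO1, the catalytic subunit of cytochrome c oxidase, had 2265 and 2052 counts against 26002 and 14014 and fell by 2.78 (SE 0.40, adjusted p = 0.00674). Both 10 µM libraries lay above both 100 µM libraries in CPM for each of the 13 protein genes. Nuclear genes far from passing, such as LRPPRC and KCNQ1OT1, had groups without overlap too, so this adds no support. The ratio of mean CPM at 10 to 100 µM had a median of 27.3 over the 13 protein genes. It ran from 4.82 for MT-CO2 to 161 for MT-ND3.

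The falls of the complex I protein genes ranged widely among themselves. Levels per kilobase of all 13 mtDNA protein genes were close to each other at 10 µM and spread at 100 µM. The highest was 1.73 and 1.48 times the lowest in the 10 µM libraries, and 51.3 and 30.8 times in the 100 µM libraries. MT-ND3 (-7.67), MT-ND5, MT-ND6 (-6.31), MT-ND4L (-6.28), MT-ND2 (-5.90) and MT-ND1 (-4.97) fell by more than MT-ND4 (-3.81). Among the other complexes, the values were -5.11 for MT-CYB of complex III, and -6.78 and -4.69 for the ATP synthase subunits MT-ATP8 and MT-ATP6. The complex IV subunits MT-CO3 and MT-CO2 had -3.49 and -2.61. All of these passed, with SEs of 0.46 to 1.10 and adjusted p-values up to 0.0178 in edgeR's quasi-likelihood test. When the counts on the mtDNA protein genes served as library size, the values of MT-ND4 and of all complex IV subunits (MT-CO1, MT-CO2, MT-CO3) turned above 0, and the other 9 stayed below 0. MT-ATP8 overlaps MT-ATP6 and MT-ND4L overlaps MT-ND4, so their counts depend on how shared reads were assigned, which was not given in the sources used here.

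For the tRNA genes the ratio of 10 to 100 µM had a median of 419 and ran from 6.50 to 1219. MT-TV had 278 and 393 counts at 10 µM and 39 and 40 at 100 µM, or 9886 ± 4955 against 24.0 ± 8.25 CPM, and fell by 8.99 (SE 1.12, adjusted p = 0.00323, edgeR quasi-likelihood). MT-TL2 had 95 and 103 counts against 2 and 5, and fell by 10.51 (SE 1.78, adjusted p = 0.0141). MT-TL2 met the filter only through the 10 µM libraries, so it could be tested only because it was high there. MT-TL1, which reads the other leucine codons, had 199 and 158 counts against 1620 and 1036. Its value of -3.05 (SE 0.85), or 1.05 when scaled to mtDNA protein counts, did not pass (adjusted p = 0.0836 and 0.363), although both 10 µM libraries lay above both 100 µM libraries in CPM. MT-TC, on the other strand, had 73 and 41 counts against 140 and 93 and fell by 4.88 (adjusted p = 0.0427), and MT-TY, the tyrosine tRNA beside it, had a value of -5.42 that did not pass (adjusted p = 0.0536).

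Other tRNA genes lay between these. MT-TF, the phenylalanine tRNA, had 258 and 254 counts at 10 µM and 14 and 17 at 100 µM and fell by 9.88 (adjusted p = 0.00342, edgeR quasi-likelihood). MT-TP, the proline tRNA, had 236 and 201 against 39 and 56 and fell by 8.01 (adjusted p = 0.00883). In the controls MT-TV had 65 and 82 counts, MT-TF 50 and 84, and MT-TP 46 and 85. The groups compared did not overlap in CPM for any of these 3 genes, but they had passed on the same counts, so this adds no support.

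Per kilobase, tRNA and protein genes of mtDNA stood at a like level at 10 µM and apart at 100 µM. The pooled counts per kilobase of the 22 tRNA genes were 1.07 and 1.11 times those of the 13 protein genes at 10 µM and 0.207 and 0.247 times at 100 µM. At 100 µM MT-TL1 alone reached 10087 and 10321 CPM per kilobase, above MT-CO2 with 9073 and 8784, while MT-TL2 stood at 13.1 and 52.6. The median tRNA gene had 1219 and 1106 counts per kilobase at 10 µM and 127 and 131 at 100 µM.

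**Figure D5:**
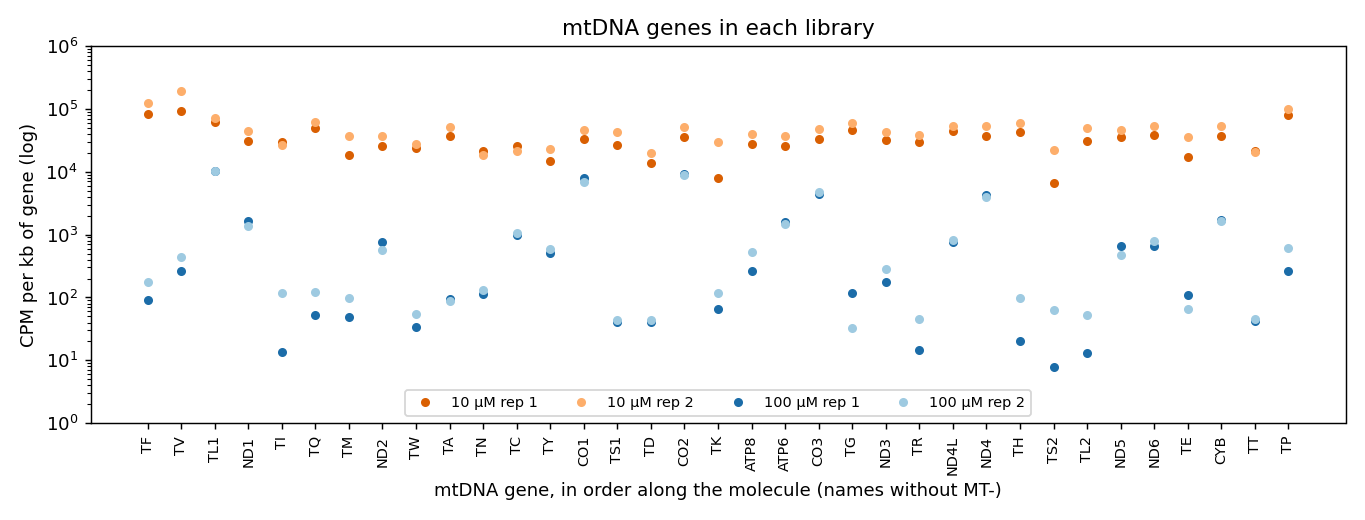
Points give the level of each mtDNA gene in the 4 libraries, as CPM per kilobase of gene (y axis, log scale), with genes in order along the molecule (x axis). For every gene both 10 µM points lie above both 100 µM points, which run from 10321 for MT-TL1 down to 7.92 for MT-TS2.

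All 24 genes that rose at 100 µM were nuclear. The groups did not overlap in CPM for the 22 protein-coding genes among them. The test had picked these genes on the same counts, so this adds no support. MALAT1 had 17 and 13 counts at 10 µM and 61687 and 34744 at 100 µM, or 417 ± 37.2 and 27384 ± 2015 CPM, and rose by 5.68 (SE 0.67, adjusted p = 0.00246, edgeR quasi-likelihood). NEAT1, the scaffold RNA of nuclear paraspeckles, had 4 and 3 counts against 10033 and 6341 and rose by 5.24 (adjusted p = 0.00860). The groups did not overlap for either gene, which adds no support for the same reason. In the controls MALAT1 had 32494 and 2808 counts.

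NDRG1, a gene induced by hypoxia and stress, had 4 and 6 counts at 10 µM and 19679 and 18872 at 100 µM, and rose by 5.99 (SE 0.76, adjusted p = 0.00323, edgeR quasi-likelihood). APOA2, an apolipoprotein of high-density lipoprotein, had 4 and 2 counts against 18293 and 11076 and rose by 6.32 (SE 0.82, adjusted p = 0.00323). FN1, the extracellular matrix protein fibronectin, had 3 and 1 counts against 11892 and 7639 and rose by 6.34 (adjusted p = 0.0130). All 3, like MALAT1 and NEAT1, passed with any 1 of the 4 compared libraries left out, and no other higher gene did. In these fits 1 dose rests on 1 library and takes its spread from the other groups. After thinning, MALAT1 (3.74), NDRG1 (4.20), APOA2 (3.99) and FN1 (4.99) still passed in the first draw, with adjusted p-values of 0.0165, 0.0476, 0.0346 and 0.0207, while NEAT1 did not (2.81, adjusted p = 0.107). The median of all genes tested in that draw was 2.15.

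Other higher genes had no count at 10 µM. GDF15, a secreted cytokine of the cell stress response, had 0 and 0 counts at 10 µM and 4407 and 3280 at 100 µM, at least 53.7-fold higher (adjusted p = 0.0304, edgeR quasi-likelihood). PSAP, the precursor of the lysosomal saposins, had 0 and 0 against 3963 and 3239, at least 50.3-fold higher (adjusted p = 0.0380). IER3, an early-response gene, had 0 and 0 against 2592 and 1921, at least 31.5-fold higher (adjusted p = 0.0408). AHNAK, a very long structural protein, had 0 and 0 against 2226 and 1027, at least 22.7-fold higher, and RPL8, a protein of the large ribosomal subunit, 0 and 0 against 3431 and 2109, at least 38.7-fold higher. Each bound takes 3 counts over the pooled 10 µM libraries.

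Genes of glycolysis, the cytoskeleton and translation were among the rest. LDHA, which turns pyruvate into lactate, had 3 and 3 counts against 10028 and 4354, a ratio of pooled CPM of 50.2 (95% counting interval 23.1 to 137). ENO1, the glycolytic enolase, had 3 and 2 counts against 9322 and 5334, a ratio of 61.4 (26.3 to 189). TMSB10, which binds actin monomers, had 1 and 1 counts against 7818 and 4882, a ratio of 133 (36.8 to 1099). EEF1A1, the factor that brings tRNAs to the ribosome, had 1 and 1 against 6939 and 4059, a ratio of 115 (31.9 to 951), and TPT1, an abundant growth-related protein, 1 and 1 against 4093 and 2789, a ratio of 72.1 (20.0 to 595). ERRFI1, an inhibitor of the epidermal growth factor receptor, had 0 and 1 against 5828 and 3148, a ratio of 188 (33.8 to 7429). Their adjusted p-values in edgeR's quasi-likelihood test were 0.0304 to 0.0429. EEF1A1, TPT1, TMSB10, RPL8 and FTL have processed copies or close relatives, so reads may be split and their counts are uncertain.

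Further higher genes were GPC3, a cell-surface proteoglycan found in hepatocellular carcinoma, with 3 and 3 counts against 7686 and 5136, and FTL, the light chain of ferritin, with 7 and 3 against 11900 and 6638. HSP90AB1, a cytosolic chaperone, had 2 and 2 against 5078 and 3420, and KRT19, an epithelial keratin, 0 and 1 against 3478 and 2728. AKAP12, which tethers protein kinase A, had 3 and 2 against 3679 and 2053. ANGPTL4, which inhibits lipoprotein lipase, had 1 and 1 against 3905 and 2594, and APLP2, a relative of the amyloid precursor protein, 3 and 2 against 5584 and 3495. For the 22 higher protein-coding genes the pooled 10 µM count was 0 to 10 and the pooled 100 µM count 3253 to 38551, and all had counts in the controls.

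The nuclear protein-coding genes that passed as lower, all of which entered the test only through the 10 µM libraries, rested on few counts there and were nearly absent from the much deeper 100 µM libraries. Their pooled count was 11 to 76 at 10 µM and 0 to 4 at 100 µM, and 18 of the 26 had 0 at 100 µM. KCNK3, a leak potassium channel, had 31 and 24 counts at 10 µM and 0 and 0 at 100 µM, at least 875-fold lower (adjusted p = 0.0380, edgeR quasi-likelihood). KCNT1, a sodium-activated potassium channel, had 4 and 68 counts and then 0 and 0, at least 1145-fold lower (adjusted p = 0.0392). ACE, the angiotensin-converting enzyme, had 25 and 15 counts and then 0 and 0, at least 636-fold lower, and AATK, a membrane-bound kinase, 29 and 47 against 1 and 0, a ratio of 3627 (95% counting interval 632 to 145134). ACE and AATK had adjusted p-values of 0.0408. The filter and the test had picked all 26 genes for high levels at 10 µM, so the lack of overlap in CPM between the groups adds no support.

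Other lower genes had still fewer counts. CDH15 and CDH22, both cadherins, had 15 and 20 and 19 and 15 counts at 10 µM while both were at 0 throughout at 100 µM, at least 557-fold and 541-fold lower. GRIN1, a subunit of the NMDA receptor, had 8 and 19 counts against 0 and 1, and BEGAIN, a protein of the postsynaptic density, 21 and 5 against 0 and 0. TECTA, a protein of the inner ear's tectorial membrane, had 23 and 3 against 0 and 0. NKPD1 had 19 and 7 counts against 0 and 0, and BAHCC1, a chromatin protein with a BAH domain, 21 and 15 against 1 and 1. Of all 26, 13 had no count in the controls and the largest pooled control count was 11. None of the 26 passed when either 100 µM library was left out, KCNT1 alone passed without 10 µM replicate 1, and 12 passed without replicate 2.

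The GC content of the lower genes is given as a description of genes that entered the test through the 10 µM libraries. The median of the 26 was 61.4% (43.6% to 66.9%), against 52.4% for the 22 higher genes and 48.4% for the 3050 protein-coding genes tested. A GC content of 60% or more was found in 16 of the 26 (61.5%), 4 of the 22 and 427 of the 3050 (14.0%). Their median counted length was 6184 bp, against 3110 bp for the higher genes and 5667 bp for those tested.

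MIR657, the only short RNA gene tested, had 14 and 2 counts at 10 µM and 0 and 0 at 100 µM, at least 255-fold lower (adjusted p = 0.0408, edgeR quasi-likelihood). It met the filter only through the 10 µM libraries, so it could pass in this direction alone. It lies inside AATK on the same strand (chromosome 17, 81117295 to 81166077), so its reads cannot be told apart from those of AATK, which was lower as well. Most other short RNA genes with the highest levels at 10 µM had counts in 1 library only. MIR8078 had 13 and 0 counts, RNU6-817P, a copy of a spliceosomal RNA, 0 and 11, RNU4-77P 0 and 8, and RN7SKP297 9 and 0. At 100 µM the leading short RNA genes had counts in both libraries, such as RNU6-387P with 75 and 43, SNORA84, which guides pseudouridine formation, with 96 and 23, and RN7SL336P with 35 and 88. These 3 had 0 and 0 at 10 µM, where their 100 µM levels lay below the limit of detection. Of 16 abundant small noncoding RNA genes on a separate list, 0 could be tested, and RN7SL2 had 1 and 1 counts at 10 µM and 18 and 11 at 100 µM.

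Long noncoding RNA genes also differed in how they recurred. HAGLR, an antisense RNA of the HOXD cluster, had 49 and 0 counts at 10 µM and 0 and 0 at 100 µM, and ENSG00000275437 had 0 and 52 against 0 and 0, and neither entered the test. PAX8-AS1 had 48 and 0 against 168 and 9 (-4.16, adjusted p = 0.198), and SNHG14, the host of small nucleolar RNAs of the imprinted region on chromosome 15, 23 and 15 against 67 and 60 (-4.13, adjusted p = 0.130). At 100 µM the leading genes after MALAT1 and NEAT1 were KCNQ1OT1, an imprinted antisense RNA, with 3277 and 1257 counts, MIR4435-2HG with 1827 and 641, and CYTOR with 1206 and 643. At 10 µM these had 19 and 0, 2 and 0, and 0 and 1 counts, and their values of 2.01, 4.30 and 4.79 did not pass (adjusted p = 0.307, 0.144 and 0.131, edgeR quasi-likelihood). MIR4435-2HG and CYTOR are near-identical copies, so their counts are uncertain.

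The check of the cell type gave hepatocyte markers at both doses, at very different levels. Of 13 markers, 9 had counts at 10 µM and 12 at 100 µM, with summed shares of 0.0482% and 0.0239% against 1.28% and 1.22% of all counts. SERPINA1, the plasma protease inhibitor antitrypsin, had 6 and 2 counts against 2798 and 1809, and ALB, albumin, 2 and 0 against 176 and 232. The marker FGB had 4 and 0 counts (91.8 and 0 CPM) against 7 and 9 (3.27 and 6.72 CPM), so its level was not clearly higher at 100 µM. APOA1, AFP and HNF4A were at 0 at 10 µM and APOC3 was at 0 throughout. Of 15 markers of other cell types, 3 had counts at 10 µM and 8 at 100 µM, with summed shares of 0.0253% and 0.0545% against 0.00715% and 0.0158%. The leukocyte markers PTPRC, CD3E and CD68 were at 0 in all 4 libraries, while the neuronal marker RBFOX3 had 2 and 10 counts at 10 µM and CKM, the muscle creatine kinase, 72 and 163 at 100 µM. COL1A1, a marker of fibroblasts or stellate cells, had 6 and 6 counts at 10 µM (138 and 204 CPM) and 67 and 42 at 100 µM (31.3 and 31.4 CPM). At 10 µM the summed shares of the hepatocyte and of the other markers overlapped, and the part of other cell types in the results was not tested.

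Lists of genes for pathways of the hepatocyte, of cell stress and of mitochondria were read against the background of 0.755% higher and 2.11% lower genes and the median of 3.52, or 1.21 at the bound. Over all tested genes, 29.5% were higher and 6.64% lower at an unadjusted p under 0.05, and 4.97% were higher and 6.79% lower in DESeq2's Wald test. Of 18 lists with tested members, 0 had a member that passed as lower in edgeR's quasi-likelihood test, in which 1 member was lower at an unadjusted p under 0.05, and 2 passed as lower in DESeq2's Wald test. In the list for glycolysis and hypoxia 3 of 28 genes rose (NDRG1, ENO1 and LDHA), their median being 5.33, which became 4.0 once members at 0 were set to their bound. Of 13 hepatocyte secreted proteins 2 rose (APOA2 and FN1), with a median of 5.29 and 3.22 at the bound. Of 22 genes of the cytoskeleton 3 rose (TMSB10, KRT19 and AHNAK) and the median was 1.69. Of 17 genes of the integrated stress response 1 rose (GDF15). Its median of 9.79 became 3.19 at the bound, since 9 members had no count at 10 µM. At an unadjusted p under 0.05 in edgeR's test, 22 glycolysis, 8 secreted protein, 7 cytoskeleton and 14 stress response genes were higher. DESeq2's Wald test called 11, 4, 5 and 6 genes of these lists higher, and 1 cytoskeleton gene lower.

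Among lipid and redox genes, 1 of 7 targets of PPARα, the lipid-sensing nuclear receptor, rose (ANGPTL4, median 5.71 and 1.40 at the bound). Of 9 genes of sterol and fatty acid synthesis 0 passed, also in DESeq2's Wald test, and 1 had an unadjusted p under 0.05, with a list median of 0.53. SCD, the stearoyl-CoA desaturase, had 1 and 3 counts against 2487 and 1696 (4.02, adjusted p = 0.130, edgeR quasi-likelihood). Of 13 genes of the NRF2 response and iron storage 1 rose (FTL, median 4.37 and 1.89), and of 17 immediate early genes 1 rose (IER3, median 4.46 and 2.98). At an unadjusted p under 0.05 in edgeR's test, 4 PPARα targets, 7 NRF2 and iron genes and 8 immediate early genes were higher. DESeq2's Wald test called 2, 1 and 2 genes of these lists higher.

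None of the nuclear genes on the 5 mitochondrial lists passed in edgeR's quasi-likelihood test. Among 18 complex I genes 0 passed and the median was 3.65 (1.75 at the bound), and NDUFB9 had 2 and 0 counts at 10 µM and 1330 and 338 at 100 µM (adjusted p = 0.159, edgeR quasi-likelihood). For complexes II to V 0 of 30 genes passed (median 8.71 and 1.87), and COX4I1 of cytochrome c oxidase had 0 and 1 counts against 1827 and 1711 (adjusted p = 0.0766). Of 78 mitochondrial ribosome genes 13 could be tested and 0 passed, with a median of 8.55 that became 0.82 at the bound. Of 8 genes of mtDNA expression and upkeep 0 passed (6.09 and 0.66), and LRPPRC, which stabilises mitochondrial messenger RNAs, had 11 and 0 counts against 557 and 375 (0.61, adjusted p = 0.802). Of 11 mitochondrial chaperone and import genes 0 passed (3.81 and 2.90), LONP1, the matrix protease, having 5 and 0 counts against 1172 and 1185. At an unadjusted p under 0.05, against 29.5% higher among all tested genes, 6 genes of complex I, 16 of complexes II to V, 4 of the mitochondrial ribosome, 3 of mtDNA expression and 2 of the chaperones were higher and 1 complex I gene was lower. DESeq2's Wald test called 3 of complexes II to V higher, 1 of complex I lower and 0 of the other lists. As a share of nuclear counts, the complex I genes took 0.0816% and 0.184% at 10 µM and 0.374% and 0.423% at 100 µM, and those of mtDNA expression 0.159% and 0.0526% against 0.143% and 0.176%, which overlapped.

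Proteins of the cytosolic ribosome took 0.151% and 0.412% of nuclear counts for the large subunit at 10 µM and 3.04% and 3.42% at 100 µM. For the small subunit the shares were 0.0979% and 0.289% against 2.03% and 2.38%. Of 44 large-subunit genes 1 rose (RPL8, median 4.91 and 3.65 at the bound) and of 32 small-subunit genes 0 passed (5.02 and 3.96). RPS18 had 1 and 2 counts against 3386 and 2598 (5.00, adjusted p = 0.0721, edgeR quasi-likelihood). Of 14 chaperones of the endoplasmic reticulum 0 passed (3.62 and 2.20), HSP90B1 having 2 and 5 counts against 4383 and 2653, and of 4 histone genes 0 passed (9.45 and 1.33). At an unadjusted p under 0.05, against the same 29.5%, 31 large-subunit and 26 small-subunit genes, 6 chaperones and 2 histone genes were higher. DESeq2's Wald test called 13, 7, 1 and 0 of them, against 4.97% of all tested genes. The 7 nuclear-retained long RNAs on their list took 0.163% and 0.149% of nuclear counts at 10 µM and 3.68% and 3.34% at 100 µM, and of the 5 tested 2 rose (MALAT1 and NEAT1, list median 5.24 and 4.28 at the bound).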

How the data were processed

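The deposited values were raw counts of reads per gene, as the authors made them, 1 table per library in the featureCounts layout. Per the submitters' processing notes, FastQC, STAR, featureCounts and DESeq2 were used with the GRCh38 build. The sources used here name no annotation, strand setting or treatment of shared reads, which can change the counts of tRNA, pseudogene and antisense genes. Gene types and GC content came from GENCODE 29, which held 56898 of the 57500 identifiers.

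Counts were tested with edgeR 4.0.16 in R 4.3.3 (filterByExpr, TMM, robust quasi-likelihood fit of group means over all 6 libraries, two-sided, Benjamini-Hochberg adjustment over all genes tested, threshold 0.05). Shares and numbers of genes were compared by exact permutation over libraries in scipy 1.17.1 under Python 3.11.15, with exact 95% binomial intervals computed for shares. Thinned numbers of genes are exact expectations, and thinned tests used 5 random draws. The fit was also run on simulated data, which were not shown to have the spread between replicates seen in these libraries. That run therefore does not show how often the test errs here.

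Members and lists were chosen with earlier results of these data known. Of the protein-coding genes that passed with groups that did not overlap, 22 higher and 26 lower, the 12 in each direction with the largest fold (lower group set to at least 3 counts) were named. Some are not reported here. Named as well were all mtDNA protein genes, the leading tRNA, long noncoding and short RNA genes, the leading genes of each list and library, and, after their values were seen, the other genes that passed and MT-TL1, MT-TL2 and MT-TY. The 35 mtDNA genes listed were 13 protein and 22 tRNA genes, so ribosomal RNA genes of mtDNA were not analysed here.

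Alternatives were other scalings, DESeq2 1.42.0, no filter, the 4 compared libraries alone, a replicate block, thinning, other denominators and length measures, and leaving out each library. Leaving out a control, further draws and GC classes were added after the data were seen.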

Additional observations from a re-analysis of the deposited data

How the results depend on the processing

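The 91 genes that passed numbered 159 with library sizes alone, 374 in DESeq2's Wald test, 3 without a filter on low counts and 258 with only the 4 compared libraries in the fit, and between 16 and 1272 with any 1 library left out. Without the filter 19632 genes were tested, and 2468 had an unadjusted p under 0.05. The 33 lower mtDNA genes numbered 0 without the filter (31 at an unadjusted p under 0.05, smallest adjusted p = 0.0679 in edgeR) and 8 to 35 with any 1 library left out, 8 without either 100 µM library. The 24 higher and 67 lower genes were all shared with DESeq2's Wald test. With the replicate number as a block 136 genes passed, among them all 24 and 66 of the 67, but the numbers are not known to pair samples (correlation of deviations across genes -0.022 between the 10 and 100 µM libraries). The long noncoding share difference of 0.107 percentage points was -5.19 among nuclear genes only, -6.41 without the 10 most abundant genes of each library, and -1.39 to 1.61 with 1 library left out. The other class differences and the length difference kept their direction under every alternative run for them, but not their size. Without the 10 most abundant genes, the mtDNA difference was -17.96 in place of -48.99, protein-coding 30.1 in place of 51.8, short RNA -0.502 in place of -0.262 and pseudogenes -4.58 in place of -2.31. Among nuclear genes only the last 3 were 12.6, -0.638 and -5.90, and by gene span the length difference of -6.93 was -1.70. Scaled to mtDNA protein counts, MT-TL1 (1.05), MT-ND4 (0.31), MT-CO1 (1.34), MT-CO2 (1.51) and MT-CO3 (0.64) turned above 0. PAX8-AS1 ran from -5.98 without 100 µM replicate 1 to 7.99 without 10 µM replicate 1, and LRPPRC -0.49 with DESeq2 size factors and in its Wald test. The cause of these changes was not tested. Depth at 10 µM limits every nuclear gene: 3 counts stood for 68.9 and 102 CPM there.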

Other observations

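The remaining 14 nuclear protein-coding genes that passed as lower at 100 µM had pooled counts of 11 to 25 at 10 µM and likewise entered the test only through the 10 µM libraries. OLIG2, a transcription factor of the oligodendrocyte lineage, had 9 and 13 counts at 10 µM and 0 and 0 at 100 µM, and GAD2, which makes the transmitter GABA, 12 and 2 against 0 and 0. GRM4, a metabotropic glutamate receptor, had 14 and 11 counts against 0 and 0, INA, a neuronal intermediate filament, 14 and 5 against 0 and 0, and SYN2, a synaptic vesicle protein, 6 and 5 against 2 and 2. NTNG2 (10 and 9 counts), TENM4 (5 and 6), LRRC14 (6 and 9), TPSG1 (10 and 5), FAM110D (9 and 15) and TMEM200B (10 and 12) had 0 and 0 at 100 µM, while ZNF513 (7 and 9), ADAD2 (10 and 10) and NFIX (10 and 4) had 1 count there. Their adjusted p-values in edgeR's quasi-likelihood test were 0.0309 to 0.0418, and none passed when either 100 µM library was left out.

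Among noncoding genes that passed as lower, LINC02600 had 12 and 5 counts at 10 µM and 1 and 0 at 100 µM, STIM1-AS1 13 and 3 against 0 and 0, and the pseudogene DUX4L26 16 and 14 against 0 and 0. They also entered the test only through the 10 µM libraries. DUX4L26 belongs to a family of near-identical repeats, and STIM1-AS1 overlaps a gene on the opposite strand, so their counts are uncertain. By gene span rather than counted length, protein-coding genes under 10 kb took 20.6% ± 2.63 of protein-coding counts at 10 µM and 25.4% ± 0.555 at 100 µM (SD, n = 2), and genes of 300 kb and over 3.72% ± 0.827 and 2.45% ± 0.189. The groups did not overlap in these 2 classes (p = 0.333, exact two-sided permutation test). At 10 and 100 µM, genes of 10 to 30 kb took 28.2% and 27.0% and genes of 30 to 100 kb 33.1% and 31.2%, also without overlap. Genes of 100 to 300 kb took 14.3% and 13.9%, which overlapped.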
